A study of Mus musculus with 38 samples.

Results

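The genes described here are 10 transcriptional targets of the Wnt pathway in mouse embryonic stem (ES) cells, chosen by name: Sp5, Axin2, Ccnd2, Nkd1, Lef1, Tcf7, Dkk1, Wnt3, T and Cdx1. Of these, 8 had counts in the table of 55385 genes, and the other 2, Nkd1 and Lef1, were listed at 0 in all 38 libraries, so their expression cannot be described. RNA was measured by stranded total RNA sequencing in ES cells of 129S6/SvEvTac background grown with serum and leukemia inhibitory factor (LIF). BRM014 is an inhibitor of BRG1 and BRM, the alternative ATPases of the SWI/SNF chromatin remodeller, and the inactive analog is the control compound that the study paired with it. In the first batch (26 libraries, 13 groups of 2), wild-type cells received DMSO, the solvent of both compounds, for 1 h or 24 h, or BRM014 at 10 µM, with collection at 30 min, 1 h, 3 h, 6 h and 24 h. Other wild-type cells of that batch received 10 µM inactive analog for 1 h or 24 h. In the washout groups BRM014 was removed, either for 30 min or 1 h after 1 h of drug, or for 6 h or 24 h after 24 h of drug. The second batch (12 libraries, 6 groups of 2) held wild-type cells and lines labelled Ino80ko and Snf2hko, each with DMSO or 10 µM BRM014 for 24 h. INO80 and SNF2H are ATPases of other remodellers, and the labels do not say where each gene was disrupted or whether a line is 1 clone. Among the samples used here none is a vehicle of 30 min, 3 h or 6 h or a washed vehicle, and the dose before washout is not stated.

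Wnt ligands bind Frizzled receptors and LRP co-receptors and thereby stop the cytoplasmic destruction complex, built on Axin and APC, from degrading beta-catenin. Beta-catenin then enters the nucleus and joins the TCF/LEF factors on DNA, where it turns on target genes. Several targets act back on the pathway: Axin2 is a destruction complex scaffold, Nkd1 binds Dishevelled, Dkk1 is a secreted inhibitor of the LRP co-receptors, and Tcf7 and Lef1 are themselves TCF/LEF factors. In ES cells Wnt signalling favours self-renewal, and in the early embryo it drives formation of the primitive streak, where Wnt3 is the ligand required and T (Brachyury) marks the mesoderm. Sp5 encodes a zinc finger factor, Cdx1 a homeobox factor of posterior patterning, and Ccnd2 the cell cycle regulator cyclin D2.

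The bases before a gene's start are shown here because TCF/LEF factors recognise a short DNA word, and the genes that moved most under BRM014 differ in whether they hold it there. RefSeq promoter windows (GRCm38.p6) were searched for 6 of the 8 genes, namely Sp5, Axin2, Dkk1, T, Tcf7 and Wnt3. Ccnd2 and Cdx1 were left out of the search, so how many of all 8 genes hold a word is not known. The 250 bases before each RefSeq start were searched on both strands for the word CTTTGAA, and likewise for its variants, of which 1 is CTTTGAT, another is CTTTGTA, and the last is CTTTGTT. No matches overlapped in the windows shown. A match describes letters and is no evidence of binding. At least 1 word stood in 3 of the 6 genes searched, against 4527 of all 27025 genes with windows (16.8%). Of 32851 windows of this length, 4874 held one (14.8%). Tcf7 had 2 windows and the other 5 genes 1 each. Sp5 had 1 word at -222 on the opposite strand and 1 at -104, Dkk1 had words at -117 and -98, and T had 1 at -235 on the opposite strand, counted from the RefSeq start. RefSeq and GENCODE do not place every start alike: 169 bases of the Dkk1 window (chr19:30549497-30549746, minus strand), 25 of the Wnt3 window and all 250 of the second Tcf7 window lie inside the gene as GENCODE annotates it, and both Dkk1 words are among those bases. None of the 4 words stood in the windows of Axin2, Tcf7 and Wnt3. The windows of 3 genes, all outside the GENCODE gene, follow, 5′ to 3′ on the strand of the gene, with the words in capitals: Sp5 (chr2:70474673-70474922, plus strand) and Axin2 (chr11:108920099-108920348, plus strand), which fell under BRM014, and T (chr17:8434173-8434422, plus strand), which rose above vehicle after the drug was removed.
Sp5: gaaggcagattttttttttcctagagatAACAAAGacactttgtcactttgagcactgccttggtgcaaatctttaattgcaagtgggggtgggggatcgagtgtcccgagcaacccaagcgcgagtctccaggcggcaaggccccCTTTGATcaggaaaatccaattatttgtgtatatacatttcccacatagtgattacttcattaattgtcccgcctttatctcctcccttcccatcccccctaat
Axin2: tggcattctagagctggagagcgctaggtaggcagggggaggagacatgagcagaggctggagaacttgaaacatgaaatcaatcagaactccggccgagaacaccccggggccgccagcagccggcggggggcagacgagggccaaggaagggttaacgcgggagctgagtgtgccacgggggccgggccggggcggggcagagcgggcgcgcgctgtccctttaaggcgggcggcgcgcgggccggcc
T: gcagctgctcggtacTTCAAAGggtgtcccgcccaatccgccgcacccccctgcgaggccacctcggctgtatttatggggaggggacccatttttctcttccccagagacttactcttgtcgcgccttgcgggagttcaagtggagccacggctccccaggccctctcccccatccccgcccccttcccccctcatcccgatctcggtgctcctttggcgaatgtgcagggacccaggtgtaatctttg

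Levels are given as CPM, which are counts relative to the library total with a scaling for library composition, and changes as log2 ± standard error (SE) from edgeR's quasi-likelihood test. A gene was called changed at a Benjamini-Hochberg adjusted p under 0.05 over all genes tested, and all 8 genes passed the low-count filter in each of the 3 fits. Library totals were 19.3 to 23.1 M counts in the first batch and 21.9 to 44.5 M in the second. The ES cell markers Pou5f1 and Nanog were present in every group, while Sox2 was listed at 0 throughout, as were Ctnnb1 (beta-catenin), Tcf7l1, Tcf7l2, Smarca4 (BRG1) and Smarca5 (SNF2H). Whether genes at 0 in every library were not expressed or not counted is not known, here and for the markers below. Such a 0, found in wild type too, is therefore not read as absence of the RNA. Ino80 stood at 128 and 122 CPM in the vehicle-treated Ino80ko libraries, 130 and 125 in Snf2hko and 174 and 175 in wild type, so its counts did not set the Ino80ko line apart from the other line. Replicates are called biological in the labels, but their cultures and days are not given, and the p-values cover only the spread among these libraries. Where groups are said not to overlap, this describes the libraries alone. The share of all genes whose groups lay apart was not computed, so such separation is no support beyond the test. Axin2 shares exonic bases with Gm11670 on the other strand, and Ccnd2 with Gm43126 and 9330179D12Rik. Whether the counting used strand is not given in the sources used here, so reads of these overlaps cannot be told apart.

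Per kb of exonic width, Tcf7 was the most abundant of the 8 genes in the first batch's DMSO 24 h libraries. By CPM, Ccnd2 was above Tcf7 there, at a mean of 56.0 against 33.3. In the first batch's DMSO 24 h libraries the mean level was 11.0 CPM per kb for Tcf7 (gene at chr11:52252371-52283014) and 5.96 for Ccnd2 (chr6:127125162-127152193). Axin2 (chr11:108920349-108950783) followed at 2.40, Dkk1 (chr19:30545863-30549665) at 1.90, Cdx1 (chr18:61018862-61036199) at 1.43 and Sp5 (chr2:70474923-70477729) at 1.27 CPM per kb. Wnt3 (chr11:103774150-103817957) at 0.394 and T (chr17:8434423-8442496) at 0.388 CPM per kb were the lowest and next to each other. Their low counts, 50 for Wnt3 and 37 for T over both libraries, limit the precision of every fold change given for them.

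The vehicle itself moved 3 of the 8 genes between 1 h and 24 h, all downward, against 18.5% of all genes tested (9.63% lower). Cdx1 stood at 7.65 and 8.47 CPM after 1 h of DMSO and at 3.44 and 1.56 after 24 h, a log2 change of -1.67 ± 0.21 (adjusted p = 1.65e-06). The groups did not overlap. Axin2 fell from 18.6 and 24.4 CPM to 12.1 and 14.3 (-0.71 ± 0.12, adjusted p = 0.000118). Sp5 went from 5.35 and 4.47 CPM to 3.04 and 2.28 (-0.88 ± 0.25, adjusted p = 0.0133), which was no longer called when DMSO 1 h replicate 1 (adjusted p = 0.13) or DMSO 24 h replicate 2 (adjusted p = 0.15) was left out. The other 5 genes differed by 0.11 or less on the log2 scale. The 3 h and 6 h treatments had no vehicle of their own time here and were set against the mean of both vehicle times.

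In the first hour of BRM014 none of the 8 genes was called. At 30 min edgeR called 0% of all genes (348 had an unadjusted p under 0.05, none of them among the 8), and at 1 h it called 0.599%. DESeq2 called none of the 8 at either time. Sp5 read 3.06 and 3.32 CPM at 1 h, below both DMSO 1 h libraries, but its change of -0.62 ± 0.24 was not called (adjusted p = 0.379). It was the only 1 of the 8 with an unadjusted p under 0.05 at that time. Axin2 was at 18.7 CPM in both BRM014 1 h libraries, inside the range of the vehicle.

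**Figure D1:**
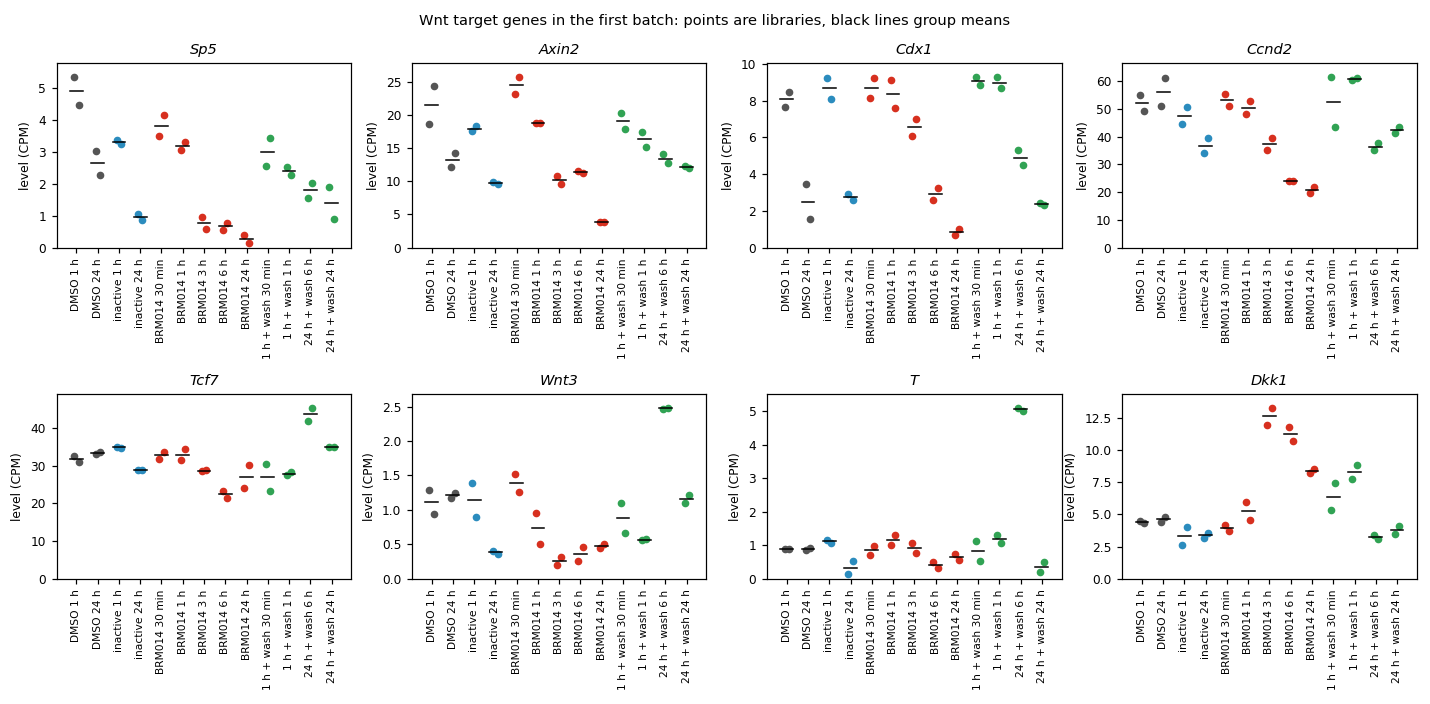
Level of each gene (CPM, linear axis from 0) in the 13 groups of the first batch: points are libraries, black lines group means, grey vehicle, blue inactive analog, red BRM014 and green washout. Sp5 sits between 0.586 and 0.967 CPM at 3 h of BRM014, Dkk1 between 11.9 and 13.3, and T reaches 5.11 CPM at 6 h after washout.

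By 3 h of BRM014, 6 of the 8 genes were called, against 31.2% of all genes. Sp5, Wnt3, Axin2 and Ccnd2 were the 4 called lower (15.7% of all genes), and Dkk1 and Cdx1 were called higher. Sp5, the zinc finger target, was at 0.967 and 0.586 CPM, against 2.28 to 5.35 over the 4 vehicle libraries (-2.22 ± 0.29, adjusted p = 8.37e-07). Wnt3, the ligand, was at 0.193 and 0.316 CPM, against 0.946 to 1.29 (-2.15 ± 0.41, adjusted p = 0.000169). Neither gene's treated libraries overlapped the vehicle. Axin2, the feedback scaffold, was at 10.8 and 9.65 CPM, below all 4 vehicle libraries (-0.72 ± 0.11, adjusted p = 1.42e-05). Ccnd2 was at 35.2 and 39.5 CPM, also below all 4 (-0.53 ± 0.11, adjusted p = 0.000759).

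Dkk1, the secreted inhibitor, moved the other way: it read 11.9 and 13.3 CPM at 3 h, against 4.34 to 4.77 in the 4 vehicle libraries (1.49 ± 0.14, adjusted p = 2.87e-09). Visceral endoderm, which derives from primitive endoderm, is known to express Dkk1. The summed level of 9 primitive endoderm markers was 2216 to 2546 CPM at 3 h, 2236 to 2300 at DMSO 1 h and 2094 to 2714 at DMSO 24 h, with 2 of the 7 tested called higher and 2 lower. Such a sum mostly follows the most abundant genes of its list, here and below. The 11 mesendoderm and primitive streak markers summed to 26.2 to 26.3 CPM at 3 h. Of the 8 tested, 2 were called higher and 1 lower, with 31.2% of all genes called. Their sum was 22.8 to 23.1 CPM at DMSO 1 h and 19.3 to 19.6 at DMSO 24 h. The part of either list in the Dkk1 change was not tested. Cdx1 at 6.09 and 6.99 CPM lay between the vehicle times, so its call (0.53 ± 0.17, adjusted p = 0.0181) depended on the vehicle used: against DMSO 1 h alone its change was -0.30 (adjusted p = 0.25). It was also not called without BRM014 3 h replicate 2 (adjusted p = 0.19) or DMSO 24 h replicate 2 (0.31, adjusted p = 0.13). Tcf7 (-0.18 ± 0.09, adjusted p = 0.132) and T (0.03 ± 0.36, adjusted p = 0.957) were not called. These are bulk samples, in which fewer cells expressing a gene and less RNA per cell cannot be told apart.

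At 6 h all 8 genes were called, against 48.4% of all genes, with 7 lower (23.5% of all genes) and 1 higher. Their median log2 change was -0.84, and that of all genes was 0.00. Sp5 stayed low at 0.558 and 0.775 CPM (-2.42 ± 0.29, adjusted p = 9.18e-08). Ccnd2 was at 23.9 and 23.8 CPM (-1.15 ± 0.12, adjusted p = 2.1e-08), and Wnt3 at 0.257 and 0.456 CPM (-1.68 ± 0.38, adjusted p = 0.000529). Tcf7, the TCF factor, was at 23.3 and 21.5 CPM against 30.9 to 33.7 in the vehicle libraries (-0.52 ± 0.09, adjusted p = 3.36e-05). All 4 genes were below every vehicle library. Dkk1 was at 11.8 and 10.7 CPM, above every vehicle library (1.34 ± 0.14, adjusted p = 6.97e-09).

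The other 3 calls at 6 h depended on the vehicle or on 1 library. Axin2 was at 11.5 and 11.3 CPM (-0.54 ± 0.11, adjusted p = 0.000173), a change of -0.19 against DMSO 24 h alone (adjusted p = 0.24). Cdx1 was at 2.57 and 3.24 CPM (-0.62 ± 0.20, adjusted p = 0.0101), and against DMSO 24 h alone the difference was 0.21 (adjusted p = 0.50). Without BRM014 6 h replicate 1 the change in Cdx1 was -0.46 (adjusted p = 0.16), and without DMSO 24 h replicate 1 it was -0.27 (adjusted p = 0.29). T was at 0.515 and 0.319 CPM (-1.06 ± 0.41, adjusted p = 0.0361). Its call was lost against either vehicle time alone and without any 1 of 5 of the 6 libraries (adjusted p 0.055 to 0.25).

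After 24 h of BRM014, measured in 4 libraries against 4 over both batches with batch as a term, 7 of the 8 genes were called, against 49.6% of all genes. Of these, 6 were lower (24.8% of all genes) and 1 was higher, and the median log2 change was -1.29. Sp5 was at 0.398, 0.152, 0.282 and 0.375 CPM, against 3.04, 2.28, 2.53 and 2.88 with DMSO (-3.14 ± 0.28, adjusted p = 1.17e-07). Axin2 was at 3.83, 3.91, 2.20 and 2.91 CPM, against 12.1, 14.3, 11.5 and 11.1 (-1.97 ± 0.14, adjusted p = 5.85e-09). Every treated library was below every vehicle library for both genes. Cdx1 was at 0.697, 1.02, 0.820 and 0.657 CPM, against 3.44, 1.56, 3.55 and 2.69 (-1.82 ± 0.27, adjusted p = 3.8e-05). Ccnd2 was at 19.7, 21.99, 25.1 and 26.7 CPM, against 51.1, 61.0, 73.1 and 75.1 (-1.47 ± 0.08, adjusted p = 2.2e-10). The groups were separate for these genes as well.

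Wnt3 was at 0.448, 0.508, 0.538 and 0.375 CPM at 24 h, against 1.18, 1.25, 0.913 and 0.896 (-1.11 ± 0.29, adjusted p = 0.00494). Tcf7 showed the smallest of the called decreases, at 24.005, 30.1, 24.8 and 25.9 CPM against 33.0, 33.7, 38.7 and 40.8 (-0.48 ± 0.09, adjusted p = 0.000397). Both genes were lower in all treated libraries. T, the streak marker, was at 0.747, 0.559, 0.307 and 0.469 CPM, against 0.861, 0.934, 0.339 and 1.20. Its groups overlapped, and the difference was not called (-0.76 ± 0.40, adjusted p = 0.124). Without DMSO 24 h replicate 3, which held 13 counts of T against 51 in replicate 4, it was -1.03 (adjusted p = 0.031).

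Dkk1 was at 8.22 and 8.48 CPM with BRM014 in the first batch and 6.61 and 6.24 in the second, against 4.44 and 4.77, and 1.64 and 2.10, with DMSO (1.31 ± 0.18, adjusted p = 1.34e-05). Its treated libraries were above all vehicle libraries. Within the first batch the change was 0.86 ± 0.18 and within the second 1.78 ± 0.13, a difference of 0.93 ± 0.27 that was not called (adjusted p = 0.0599). At the main settings none of the 8 genes was called for a difference between batches by edgeR or DESeq2, against 3.46% of all genes in edgeR. In edgeR, 2 had an unadjusted p under 0.05. With no low-count filter edgeR called 1 of the 8, and with the replicate number as a block it called 1, Dkk1. Primitive endoderm markers summed to 2177 to 2436 CPM with BRM014 and 2094 to 2714 with DMSO in the first batch. In the second they summed to 2140 to 2400.3 and 1514 to 1612. Mesendoderm and primitive streak markers summed to 28.8 to 29.0 CPM with BRM014 and 19.3 to 19.6 with DMSO in the first batch. In the second these sums were 19.2 to 23.2 and 13.3 to 13.5. The part of either list in the size of the Dkk1 change was not tested.

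Taken by batch, 7 of the 8 genes were called at 24 h in the first (45.8% of all genes) and 6 in the second (42.3%), where Wnt3 was not (-0.93 ± 0.43, adjusted p = 0.0919). In the first batch the call of Tcf7 (-0.30 ± 0.10, adjusted p = 0.0182) was lost without BRM014 24 h replicate 1, leaving -0.16 (adjusted p = 0.32), and without DMSO 24 h replicate 2 (adjusted p = 0.06). Within that batch Wnt3 was not called without BRM014 24 h replicate 1 (-1.25, adjusted p = 0.059), and Cdx1 was not called without DMSO 24 h replicate 1 (-0.86, adjusted p = 0.054). Between 6 h and 24 h of drug, 3 of the 8 genes were called, all lower, against 41.6% of all genes (22.1% lower). Axin2 fell by 1.58 (SE 0.15, adjusted p = 2.38e-09) and Cdx1 by 1.78 (SE 0.30, adjusted p = 2.69e-05) on the log2 scale, and both genes also fell in the vehicle between 1 h and 24 h. Dkk1 changed by -0.46 ± 0.16 (adjusted p = 0.0218), a call lost without any 1 of 3 libraries (adjusted p 0.076 to 0.14). Wnt3, already low at 3 h, had a late change of 0.40 ± 0.50 (adjusted p = 0.557). That of Sp5 was -1.27 ± 0.53 (adjusted p = 0.0551), and it was -2.10 without BRM014 24 h replicate 1 (adjusted p = 0.037).

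The inactive analog was given at the dose of BRM014 for 1 h or 24 h, and the samples used here hold none at 3 h or 6 h. At 1 h none of the 8 genes was called against DMSO (0.184% of all genes), and none between BRM014 and the analog (0.16%), by edgeR or by DESeq2. An unadjusted p under 0.05 was found for 3 genes in the first of these comparisons and for 1, Dkk1, in the other. The largest difference between the compounds at 1 h was that of Dkk1, at 5.99 and 4.55 CPM with BRM014 and 2.60 and 4.05 with the analog (0.66, 95% interval 0.26 to 1.06, adjusted p = 0.285).

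At 24 h, 5 of the 8 genes were lower with the analog than with DMSO and none was higher, against 18.4% of all genes called (9.52% lower). Sp5 was at 1.05 and 0.850 CPM, against 3.04 and 2.28 with DMSO (-1.49 ± 0.32, adjusted p = 0.00114). Wnt3 was at 0.409 and 0.358 CPM, against 1.18 and 1.25 (-1.64 ± 0.41, adjusted p = 0.0055). Ccnd2 was at 34.0 and 39.4 CPM, against 51.1 and 61.0 (-0.61 ± 0.12, adjusted p = 0.00124). None of these groups overlapped. Axin2 was at 9.92 and 9.58 CPM, below both vehicle libraries (-0.44 ± 0.13, adjusted p = 0.0189), but without DMSO 24 h replicate 2 the change was -0.31 (adjusted p = 0.21), and without analog replicate 1 or 2 it was not called (adjusted p 0.069 and 0.13). Wnt3 was not called without analog replicate 2 (-1.54, adjusted p = 0.063). T was at 0.136 and 0.537 CPM (-1.39 ± 0.49, adjusted p = 0.0483), a call lost without analog replicate 1 (-0.72, adjusted p = 0.40) and without either vehicle library (adjusted p 0.09 and 0.14). Cdx1 (0.11 ± 0.25), Dkk1 (-0.44 ± 0.20) and Tcf7 (-0.21 ± 0.10) were not called. DESeq2 called 3 of the 5, leaving T at an adjusted p of 0.052 and giving Wnt3 none. Among the fits leaving out 1 library, Cdx1 was called only without DMSO 24 h replicate 1 (0.82, adjusted p = 0.045).

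**Figure D2:**
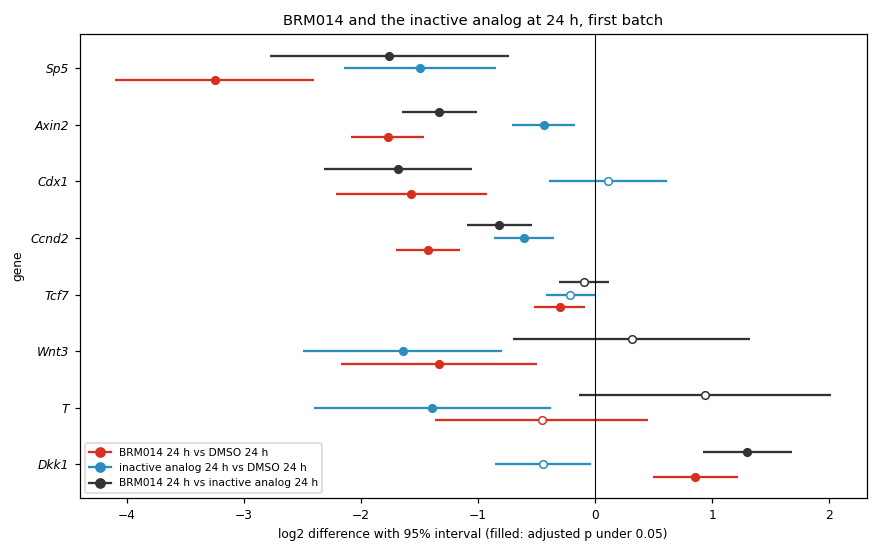
Log2 differences with 95% intervals at 24 h in the first batch (2 libraries a group) for BRM014 over DMSO (red), the analog over DMSO (blue) and BRM014 over the analog (dark grey), with filled points called at an adjusted p under 0.05. Sp5, Axin2, Cdx1 and Ccnd2 lie below 0 and Dkk1 above 0 between the compounds, while the intervals of Tcf7, Wnt3 and T include 0.

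Set directly against the analog at 24 h, BRM014 differed in 5 of the 8 genes, against 35.4% of all genes. Axin2 was lower by 1.33, at 3.83 and 3.91 against 9.92 and 9.58 CPM (-1.33 ± 0.16, adjusted p = 8.16e-08). Cdx1 stood at 0.697 and 1.02 against 2.91 and 2.60 CPM (-1.68 ± 0.31, adjusted p = 7.73e-05). Ccnd2 (-0.82 ± 0.13, adjusted p = 4.01e-05) was lower and Dkk1 (1.30 ± 0.18, adjusted p = 1.96e-06) higher with BRM014. These 4 genes showed no overlap between compounds. Sp5 was also lower (-1.76 ± 0.50, adjusted p = 0.00627), although without BRM014 24 h replicate 2, which held the lowest Sp5 level, the difference was -1.24 (adjusted p = 0.12).

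Between the compounds no difference was called for Tcf7 (-0.09, 95% interval -0.31 to 0.12), Wnt3 (0.31, -0.70 to 1.32) or T (0.94, -0.14 to 2.02). The interval of Tcf7 is narrow, whereas those of Wnt3 and T allow a difference of more than 1 on the log2 scale. Without analog replicate 2 the difference for T was 2.20 (adjusted p = 0.032). Against DMSO, Wnt3 changed by -1.33 ± 0.41 with BRM014 and by -1.64 ± 0.41 with the analog. The contrasts with DMSO share their vehicle libraries.

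After removal of a 1 h treatment, Sp5, Axin2 and Dkk1 differed from DMSO 1 h. At 30 min after removal neither edgeR nor DESeq2 called any of the 8 against DMSO 1 h (5.36% of all genes in edgeR), although 3 had an unadjusted p under 0.05. Without washout 30 min replicate 1, Tcf7 (-0.46, adjusted p = 0.0096) and Dkk1 (0.73, adjusted p = 0.023) were called. At 1 h after removal 3 were called (8.1%). Sp5 was at 2.52 and 2.26 CPM at 1 h after removal, against 5.35 and 4.47 with DMSO 1 h (-1.04 ± 0.25, adjusted p = 0.00833), and Axin2 was at 17.4 and 15.2 CPM (-0.41 ± 0.12, adjusted p = 0.0289). Neither group overlapped DMSO 1 h. Both genes also fell in the vehicle by 24 h, Sp5 to 3.04 and 2.28 CPM and Axin2 to 12.1 and 14.3. The washed cells had no vehicle of their own time, so the part of such drift in these 2 calls was not tested. Leaving out DMSO 1 h replicate 1 (adjusted p = 0.11) or washout 1 h replicate 2 (adjusted p = 0.10) ended the Sp5 call. For Axin2 the same held of DMSO 1 h replicate 2 (-0.19, adjusted p = 0.55) and washout 1 h replicate 2 (-0.31, adjusted p = 0.31).

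Dkk1 was at 7.71 and 8.83 CPM at 1 h after removal, against 4.47 and 4.34 with DMSO 1 h (0.90 ± 0.18, adjusted p = 0.00127). Compared with the end of the 1 h treatment (5.99 and 4.55 CPM) it was the only one of the 8 genes called, against 3.98% of all genes (0.65 ± 0.17, adjusted p = 0.0259). That call was lost without BRM014 1 h replicate 2 (0.47, adjusted p = 0.30) or washout 1 h replicate 2 (0.55, adjusted p = 0.26). Primitive endoderm markers were also higher at this time. Of the 7 tested, 5 were called higher than with DMSO 1 h and none lower, with 8.1% of all genes called. The 9 listed summed to 3469 to 3607 CPM against 2236 to 2300, with Pdgfra and Col4a1 at 0 in every library. Their sum was already 3285 to 3491 CPM at 30 min after removal, when Dkk1 was not called. The 7 trophectoderm markers summed to 365 to 399 CPM at 1 h after removal, against 283 to 293 with DMSO 1 h. The mesendoderm and primitive streak sum was 25.9 to 31.9 CPM against 22.8 to 23.1. The part of these lists in the Dkk1 change was not tested.

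At 6 h after removal of a 24 h treatment, all 8 genes differed from their levels at the end of treatment, against 48.7% of all genes. The change was upward in 7 (25.3% of all genes) and downward in Dkk1. T rose from 0.747 and 0.559 CPM to 5.11 and 5.01 (2.95 ± 0.36, adjusted p = 6.98e-08). Sp5 rose to 1.54 and 2.04 CPM (2.67 ± 0.44, adjusted p = 1.26e-05), Cdx1 to 5.28 and 4.52 (2.52 ± 0.28, adjusted p = 1.75e-08) and Wnt3 to 2.47 and 2.48 (2.36 ± 0.37, adjusted p = 4.65e-06). In none of these genes did the groups overlap. Axin2 rose to 14.09 and 12.8 CPM (1.80 ± 0.15, adjusted p = 7.42e-11), and smaller rises were called for Ccnd2 (0.80 ± 0.13) and Tcf7 (0.69 ± 0.10). Dkk1 fell to 3.39 and 3.08 CPM (-1.36 ± 0.19, adjusted p = 6.91e-07).

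**Figure D3:**
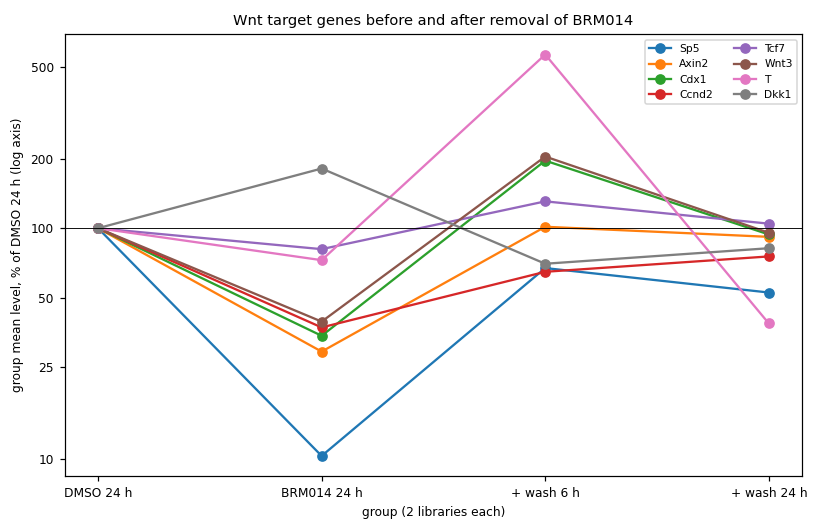
Group mean level of each gene as a percentage of its DMSO 24 h mean in the first batch (log axis, 2 libraries a group), for vehicle, 24 h of BRM014, and 6 h and 24 h after its removal. At 6 h after removal T stands at 564% of DMSO 24 h, Wnt3 at 204% and Cdx1 at 196%, while Sp5 stands at 67.2% and Ccnd2 at 64.8%. Cdx1 in DMSO 1 h, not plotted here, stands at 322%.

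Several genes went past DMSO 24 h at 6 h after removal. Against DMSO 24 h, 4 were higher and 2 lower, with 39.8% of all genes called (20.8% higher). T stood far above vehicle, at 5.11 and 5.01 CPM against 0.861 and 0.934 (2.49 ± 0.33, adjusted p = 8.67e-07). Wnt3, the ligand, was at 2.47 and 2.48 against 1.18 and 1.25 CPM (1.03 ± 0.31, adjusted p = 0.00926), and Tcf7 was at 41.8 and 45.3 against 33.0 and 33.7 CPM (0.39 ± 0.10, adjusted p = 0.00286). These 3 genes were above vehicle in both libraries, but Wnt3 was not called without DMSO 24 h replicate 1 (adjusted p = 0.059) or washout 6 h replicate 1 (adjusted p = 0.052). Cdx1 was also higher (0.95 ± 0.23, adjusted p = 0.00128), a difference of 0.50 and no longer called without DMSO 24 h replicate 2. At 5.28 and 4.52 CPM it lay between the vehicle times, with DMSO 1 h at 7.65 and 8.47 CPM. Ccnd2 was still lower, at 35.0 and 37.6 CPM (-0.62 ± 0.13, adjusted p = 0.000379). Dkk1 was called lower (-0.50 ± 0.20, adjusted p = 0.0483), but not by DESeq2 or without any 1 of the 4 libraries (adjusted p 0.063 to 0.19). Axin2 differed from vehicle by 0.03 ± 0.13, and Sp5 was not called (-0.58 ± 0.29, adjusted p = 0.107).

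The summed levels of marker lists also differed from vehicle at this time, when 39.8% of all genes were called (20.8% higher). Against DMSO 24 h, the 11 mesendoderm and primitive streak markers summed to 27.8 to 29.8 CPM against 19.3 to 19.6, with 3 of the 8 tested called higher and none lower, and with Msgn1 at 0 in every library. Their sum was already 28.8 to 29.0 CPM at the end of the 24 h treatment, before T rose. After 6 h of washout 2 of the 8 were higher and 2 lower than at that point, against 48.7% of all genes called. The 7 neuroectoderm markers, of which only 3 passed the filter, summed to 136 to 144 CPM against 60.7 to 61.1, with Sox1 and Tubb3 at 0 in every library. The 7 trophectoderm markers, which include Cdx2, summed to 367 to 377 against 257 to 280, with all 6 tested called higher. The ES cell list summed to 8541 to 8704 CPM against 7939 to 8000. The part of these markers in the levels of T, Wnt3 and Cdx1 was not tested.

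At 24 h after removal none of the 8 genes was called above vehicle. T was at 0.200 and 0.495 CPM, Wnt3 at 1.10 and 1.21, Tcf7 at 34.8 and 35.0 and Cdx1 at 2.41 and 2.29. Against 24 h of BRM014, 7 of the 8 genes were called, 6 higher and Dkk1 lower, with 50.4% of all genes called (25.8% higher). The exception was T (-0.87 ± 0.53, adjusted p = 0.175). Tcf7 (0.37 ± 0.10) was not called without BRM014 24 h replicate 1 (0.23, adjusted p = 0.12). Wnt3 (1.28 ± 0.41) was not called without that library (adjusted p = 0.065) or washout 24 h replicate 2 (adjusted p = 0.054). Against DMSO 24 h, 2 genes were called, both lower, with 17.4% of all genes called (8.52% lower). Sp5 was at 1.90 and 0.900 CPM (-0.95 ± 0.30, adjusted p = 0.0276), a difference of -0.48 without washout 24 h replicate 2 (adjusted p = 0.38) and of -0.72 without DMSO 24 h replicate 1 (adjusted p = 0.17). Ccnd2 was at 41.3 and 43.3 CPM (-0.40 ± 0.12, adjusted p = 0.0281), a call lost without DMSO 24 h replicate 2 (-0.26, adjusted p = 0.28) or either washout library (adjusted p 0.14 and 0.081). The call of neither gene held when only these 4 libraries were fitted. T was not called (-1.32 ± 0.49, adjusted p = 0.0641), but it was without washout 24 h replicate 2 (-2.12, adjusted p = 0.049). All comparisons with washout share the same vehicle or BRM014 libraries.

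With DMSO, some of the 8 genes differed between the knockout lines and wild type, at shares near those of all genes. In the Ino80ko line with DMSO, 3 of the 8 genes differed from wild type, against 45% of all genes. Axin2 was at 23.3 and 21.1 CPM, against 11.5 and 11.1 (0.98 ± 0.11, adjusted p = 4.64e-07). Cdx1 was at 7.28 and 6.13 CPM, against 3.55 and 2.69 (1.11 ± 0.18, adjusted p = 7.24e-05). Ccnd2 was at 19.5 and 19.4 CPM, against 73.1 and 75.1 (-1.93 ± 0.10, adjusted p = 1.53e-11). The libraries of both lines were separate for these 3 genes, whereas Sp5 (0.02 ± 0.27), Dkk1 (0.07 ± 0.16) and Tcf7 (-0.09 ± 0.12) were not called.

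In the Snf2hko line 5 of the 8 genes differed from wild type, against 56.5% of all genes. Dkk1 was at 37.4 and 35.8 CPM, against 1.64 and 2.10 in wild type (4.28 ± 0.12, adjusted p = 1.33e-15). Axin2 was at 33.3 and 35.0 CPM (1.59 ± 0.11, adjusted p = 2.24e-10) and Ccnd2 at 101 and 97.1 (0.42 ± 0.09, adjusted p = 0.000545). Tcf7 was lower, at 24.2 and 23.6 CPM against 38.7 and 40.8 (-0.74 ± 0.12, adjusted p = 4.15e-05). These 4 genes did not overlap between the lines. Cdx1 was at 4.47 and 4.57 CPM (0.53 ± 0.19, adjusted p = 0.0219), with a difference of 0.34 without DMSO 24 h replicate 4 (adjusted p = 0.21) and a call also lost without either Snf2hko library (adjusted p 0.066 and 0.09).

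The summed levels of several marker lists differed in Snf2hko, where 56.5% of all genes were called against wild type. With DMSO, the 9 primitive endoderm markers summed to 6014 to 6271 CPM in Snf2hko, 1514 to 1612 in wild type and 832 to 977 in Ino80ko. All 7 that were tested were higher in Snf2hko than in wild type. Gata6 averaged 101 CPM in Snf2hko and 19.5 in wild type, and Sox17 77.3 and 13.6, each a small part of the sum. Pdgfra and Col4a1 were at 0 in every library. The 11 mesendoderm and primitive streak markers summed to 45.1 CPM in both Snf2hko libraries against 13.3 to 13.5 in wild type (4 of 9 tested higher, 1 lower), and the 7 trophectoderm markers to 589 to 590 against 230 to 247 (3 of 6 higher, 1 lower). The 15 ES cell markers summed to 6779 to 7100 against 7737 to 8155, with 7 of 13 tested lower and 1 higher. The part of these markers in the levels of the Wnt targets was not tested.

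**Figure D4:**
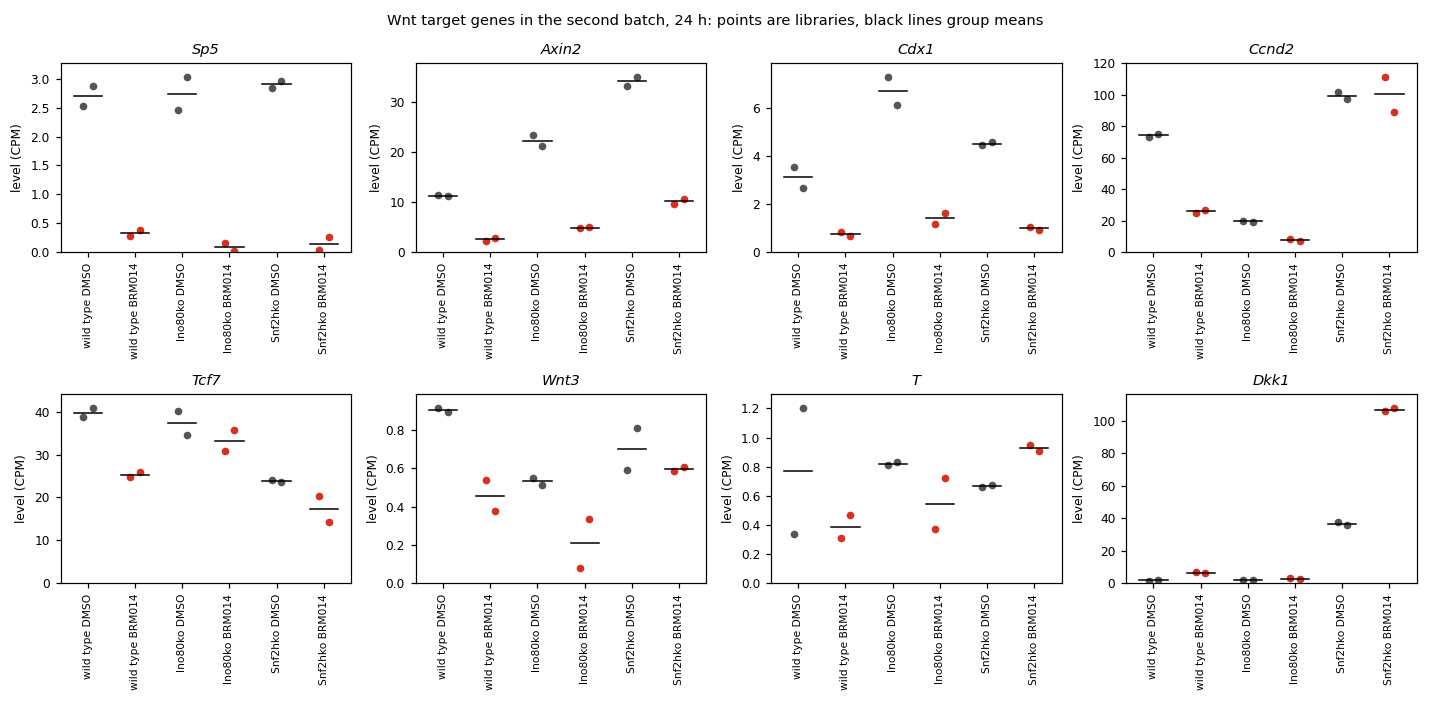
Level of each gene (CPM, linear axis from 0) in the 6 groups of the second batch at 24 h, with points for libraries, black lines for group means, grey for DMSO and red for BRM014. Dkk1 reaches 106 and 108 CPM with BRM014 in Snf2hko, and Ccnd2 in Snf2hko is at 111 and 89.3 CPM with BRM014 against 101 and 97.1 with DMSO.

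Sp5, Axin2 and Cdx1 were lower with BRM014 than with DMSO in both knockout lines as in wild type. The second batch held no inactive analog, so a part shared with that compound cannot be told apart there. In the first batch the analog at 24 h changed Sp5 by -1.49, Axin2 by -0.44 and Cdx1 by 0.11 on the log2 scale. In Ino80ko, 5 of the 8 genes were lower and Dkk1 higher at 24 h, against 44.5% of all genes called (22.6% lower). Sp5 dropped from 2.45 and 3.03 to 0.160 and 0.0257 CPM (-4.86 ± 0.48, adjusted p = 8.27e-08), the last value being a single count. Axin2 dropped from 23.3 and 21.1 to 4.84 and 4.99 CPM (-2.18 ± 0.12, adjusted p = 1.66e-11), Cdx1 from 7.28 and 6.13 to 1.18 and 1.64 (-2.24 ± 0.21, adjusted p = 3.48e-08) and Ccnd2 from 19.5 and 19.4 to 7.99 and 7.20 (-1.36 ± 0.11, adjusted p = 4.05e-09). For all 4 genes the treated libraries were below the vehicle. Wnt3 went from 0.548 and 0.513 to 0.0802 and 0.334 CPM (-1.33 ± 0.51, adjusted p = 0.0409), a change of -0.66 without BRM014 Ino80ko replicate 1 (adjusted p = 0.36). It was also not called without either vehicle library (adjusted p 0.13 and 0.099) or by DESeq2 (adjusted p = 0.063). Dkk1 rose from 2.01 and 1.93 to 2.99 and 2.75 CPM (0.54 ± 0.15, adjusted p = 0.00505).

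In Snf2hko, 4 genes were lower and Dkk1 higher with BRM014, against 56.9% of all genes called (28.2% lower). Sp5 dropped from 2.84 and 2.97 to 0.0279 and 0.256 CPM (-4.23 ± 0.42, adjusted p = 8.7e-08), the lowest value again being a single count. Cdx1 dropped from 4.47 and 4.57 to 1.03 and 0.932 CPM (-2.20 ± 0.22, adjusted p = 9.49e-08), and Axin2 from 33.3 and 35.0 to 9.67 and 10.6 (-1.74 ± 0.11, adjusted p = 7.78e-11). Every treated library was below the vehicle. Tcf7 dropped from 24.2 and 23.6 to 20.3 and 14.2 CPM (-0.47 ± 0.13, adjusted p = 0.00408), but only by -0.23 without BRM014 Snf2hko replicate 2 (adjusted p = 0.11). Dkk1 rose from its raised level of 37.4 and 35.8 to 106 and 108 CPM (1.55 ± 0.08, adjusted p = 1.52e-11). Primitive endoderm markers rose beside it, 6 of 7 higher and 1 lower, from a sum of 6014 to 6271 to one of 8597 to 9638 CPM. The mesendoderm and primitive streak sum went from 45.1 CPM in both libraries to 78.0 to 81.4 CPM. The part of either list in the rise of Dkk1 was not tested.

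The response to BRM014 differed from that of wild type in 1 gene for each line, by the test of the interaction. In Ino80ko that gene was Dkk1, whose rise was smaller by 1.24 on the log2 scale (-1.24 ± 0.20, adjusted p = 0.000518), against 9.03% of all genes called. Primitive endoderm markers summed to 663 to 716 CPM with BRM014 in Ino80ko, below their sum of 832 to 977 with DMSO, and 2140 to 2400.3 with BRM014 in wild type, above that with DMSO. Mesendoderm and primitive streak markers summed to 17.2 to 17.4 CPM with BRM014 in Ino80ko and 11.0 to 11.3 with DMSO. In wild type these sums were 19.2 to 23.2 and 13.3 to 13.5. The part of either list in the difference was not tested. In Snf2hko the gene was Ccnd2, which fell from 73.1 and 75.1 to 25.1 and 26.7 CPM in wild type and went from 101 and 97.1 to 111 and 89.3 in Snf2hko (0.02 ± 0.09). The difference in response was 1.54 ± 0.13 (adjusted p = 5.59e-08), against 32.6% of all genes called. That of Dkk1 in Snf2hko was -0.22 ± 0.16 (adjusted p = 0.314). For Axin2 and Cdx1, the interactions were 0.01 ± 0.17 and -0.21 ± 0.35 in Ino80ko, and 0.44 ± 0.18 and -0.16 ± 0.36 in Snf2hko. None of these was called. Sp5 gave -1.77 ± 0.78 in Ino80ko (adjusted p = 0.178) and -1.14 ± 0.70 in Snf2hko (adjusted p = 0.234). Without BRM014 Snf2hko replicate 2 the latter was -3.47 (adjusted p = 0.019), and Tcf7 was called too (0.41, adjusted p = 0.045). In Snf2hko, T was called without DMSO 24 h replicate 3 (2.16, adjusted p = 0.0067) and Axin2 without BRM014 24 h replicate 4 (0.59, adjusted p = 0.037).

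Among other genes of the pathway at 24 h of BRM014 in wild type, more ligands were lower than higher, and 49.6% of all genes were called (24.8% lower). Of 13 genes of ligands and their release that were tested, 7 were lower and 2 higher, with a median log2 change of -0.96 against 0.00 for all genes. Within batches, 6 of 14 were lower and 2 higher in the first, and 6 of 16 lower and 1 higher in the second. Wnt7b went from 17.6 ± 1.28 to 2.40 ± 0.555 CPM (SD, n = 4), a change of -2.87 ± 0.15, and Wnt4 (-2.44 ± 0.21) and Wnt6 (-2.23 ± 0.26) were also lower. Rspo1, an R-spondin that strengthens Wnt signalling, was higher (0.83 ± 0.17). With the inactive analog at 24 h, Wnt6 (-1.54 ± 0.23), Wnt4 (-0.77 ± 0.21) and Wnt7b (-0.57 ± 0.14) were lower too.

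**Figure D5:**
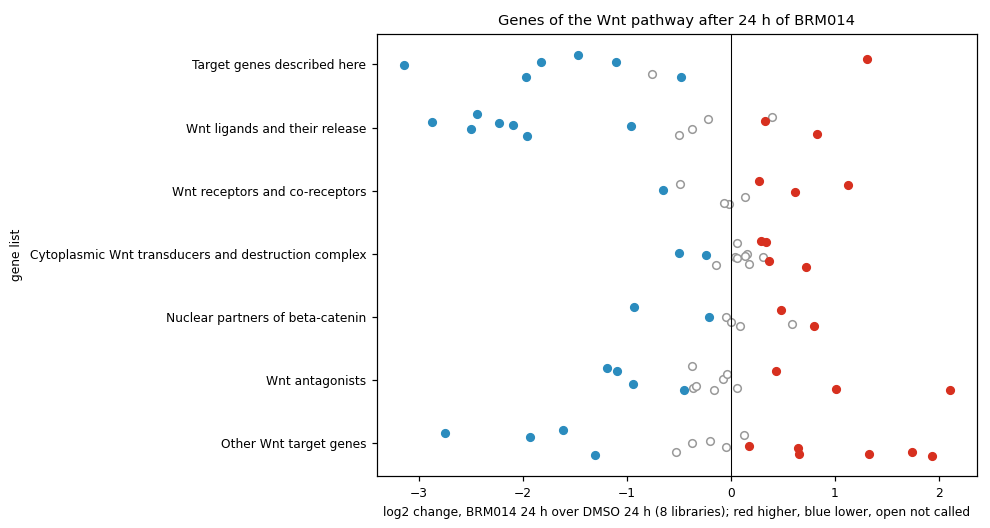
Log2 change at 24 h of BRM014 over DMSO in wild type (4 libraries against 4, both batches) for each tested gene of the pathway lists, with red points called higher, blue called lower and open grey not called. The target genes described here span -3.14 (Sp5) to 1.31 (Dkk1), and the ligand list has 7 of 13 genes lower.

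The receptor and signalling lists showed no common direction, and 4 of 8, 6 of 14 and 4 of 8 of their genes were called, near the 49.6% of all genes. Of 8 receptors and co-receptors tested, 3 were higher and 1 lower: Fzd4 (1.12 ± 0.11), Lgr4 (0.62 ± 0.07) and Ror2 (0.27 ± 0.10) rose and Fzd5, the most abundant by CPM of those named, fell from 418 to 265 CPM (-0.66 ± 0.07). Of 14 cytoplasmic genes, 4 were higher and 2 lower, among them the Dishevelled gene Dvl1 (0.72 ± 0.10), the scaffold Axin1 (0.37 ± 0.06), the ubiquitin ligase subunit Btrc (0.34 ± 0.07) and Amer1 (-0.50 ± 0.08). Thus Axin1 was higher while its target-gene relative Axin2 was lower. Of 8 nuclear partners of beta-catenin, 2 were higher (Bcl9l, 0.48 ± 0.10, and Pygo1, 0.80 ± 0.27) and 2 lower (the co-repressor Tle3, -0.93 ± 0.06, and Pygo2, -0.21 ± 0.06).

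Of 14 antagonists tested besides Dkk1, 3 were higher and 4 lower, against 49.6% of all genes called (24.8% lower). The secreted antagonist Sfrp1 fell from 183 to 85.0 CPM (-1.10 ± 0.07), and Sfrp5 (-1.19 ± 0.24) and the membrane inhibitor Apcdd1 (-0.95 ± 0.18) fell too, while Frzb rose from 0.487 to 2.10 CPM (2.10 ± 0.26). Of 15 other target genes tested, 6 were higher and 4 lower, with the same background. Cyclin D1, Ccnd1, fell like its relative Ccnd2, from 339 to 89.8 CPM (-1.93 ± 0.07), and Ascl2, a basic helix-loop-helix factor, went from 5.38 to 0.791 (-2.75 ± 0.20). Id2 (1.74 ± 0.09) and Bambi (0.66 ± 0.09), which are also targets of BMP signalling, rose. The genes of this list moved in both directions, with a median log2 change of -0.05.

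Over the 13 groups of the first batch, the group mean levels of some of these genes ran together. The groups share a batch and overlapping treatments, so the correlations (Pearson r of log2 CPM) describe these libraries only. Sp5 and Axin2 had r = 0.933, Sp5 and Ccnd2 0.896, and Axin2 and Cdx1 0.868, whereas Dkk1 was negatively correlated with each of the other 7, down to -0.755 with Tcf7. Among 8134 other genes, those most like each target were Skor1 for Sp5 (0.972), Bmp4 for Axin2 (0.964), Slc39a4 for Cdx1 (0.986) and Ablim1 for Ccnd2 (0.971). For the rest they were Ulk1 for Tcf7 (0.930), Sigirr for Wnt3 (0.932), Wsb2 for T (0.947) and Lin9 for Dkk1 (0.953). The mean level of Lin9 spanned 0.51 on the log2 scale over the 13 groups, against 1.93 for Dkk1, so a like pattern did not mean a like size of change.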

How the data were processed

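The authors deposited raw counts per gene for each library. The submitters' processing notes name bcl2fastq 2.17, STAR and the mouse build GRCm38 (mm10). Neither the counting program nor its annotation or strand setting is named in the sources used here. Every column matched a sample title, leaving 0 unmapped. The 10 genes were found by symbol in the deposited table. The genes and all lists were chosen with earlier results of these data known.

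Genes with low counts were removed by filterByExpr (minimum count 10, minimum total 15, by group), and the rest were scaled by TMM and tested with the robust quasi-likelihood F-test of edgeR 4.0.16 (R 4.3.3). Each of 27 comparisons was adjusted by Benjamini-Hochberg over all its genes, with calls at 0.05. One fit held the 26 libraries of the first batch (12517 genes, biological coefficient of variation 6.15%), another the 12 of the second (13130 genes, 6.63%), and another the 8 wild-type 24 h libraries with batch as a term (11787 genes, 9.16%). Groups of 2 libraries are too small for a spread of their own, so all groups of a fit share 1. Batch is the experimental batch of the labels. The SE is the log2 change divided by the square root of F. CPM levels used TMM factors over all 38 libraries (0.922 to 1.043), and levels per length the deposited exonic width. Coordinates are from GENCODE M21.

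In simulated data with the first batch's means, the test recovered 74.6% of 1.5-fold, 94.0% of 2-fold and 100% of 4-fold changes between 24 h of BRM014 and DMSO (12109 genes). Every simulated gene had the same spread, changes were placed only in genes above a minimum mean count, and no other group differed. These shares therefore need not hold for T, Wnt3 or Sp5 under BRM014, whose counts were low. No 2 libraries of a group were identical, and chi-square per degree of freedom within a group was 2.04 to 25.36, above counting noise. Named genes were all targets, up to 4 called genes of each pathway list with the smallest adjusted p at 24 h, and per target the gene most like it among those of mean log2 CPM of at least 2. The alternatives tried were DESeq2 1.42.0, other size factors (RLE), no low-count filter, fits of only the compared libraries, the replicate number as a block, each vehicle time alone, no batch term, and leaving out each library.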

Additional observations from a re-analysis of the deposited data

Results flagged for a closer look

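A pair of results differed between cell lines by the test of the interaction (edgeR quasi-likelihood test, second batch). The response of Dkk1 to 24 h of BRM014 in Ino80ko was lower than in wild type by -1.24 on the log2 scale (adjusted p = 0.000518), with both treated Ino80ko libraries at 2.99 and 2.75 CPM against 6.61 and 6.24 in wild type and vehicle levels of 2.01 and 1.93 against 1.64 and 2.10. The response of Ccnd2 in Snf2hko was higher than in wild type by 1.54 (adjusted p = 5.59e-08), since Ccnd2 fell in both treated wild-type libraries and lay on either side of the vehicle in Snf2hko. Of all genes, 9.03% were called for the Ino80ko interaction and 32.6% for that of Snf2hko. The wild-type rise of Dkk1 was 1.78 in the second batch and 0.86 in the first, against 0.54 in Ino80ko.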

How the results depend on the processing

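Outside leave-one-out fits, 1086 values of single genes were recomputed: 1058 kept direction and side of the threshold, 16 lost a call, 10 gained one and 2 reversed, namely Cdx1 at 3 h against DMSO 1 h alone (-0.30) and at 6 h against DMSO 24 h alone (0.21). Of 1024 leave-one-out values, 957 kept both, 54 lost a call, 13 gained one and 0 reversed. The cause of these changes was not tested.

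Counts of the 8 genes called moved by over 1.5 times as follows. Against DMSO 24 h alone, 5 genes were called at 6 h in place of 8. With only the compared libraries fitted, which leaves fewer samples, 5 were called between 6 h and 24 h (3 in the shared fit), 3 for the analog at 24 h (5), 0 for washout 1 h against BRM014 1 h (1), 0 for washout 24 h against vehicle (2) and 2 for the Ino80ko interaction (1). With DESeq2, 3 were called for the analog at 24 h. With no filter, 1 was called for washout 30 min (0), 1 for the batch difference (0), 2 for the Ino80ko interaction and 2 for the Snf2hko interaction (1). With the replicate number as a block, 1 was called for the batch difference, namely Dkk1 (adjusted p = 0.026), and the call of T with the analog at 24 h was lost (adjusted p = 0.053); the block changed no other call. Replicate numbers did not pair the samples: deviations of same-numbered libraries correlated at -0.58 to 0.67 over 78 pairs of groups in the first batch and -0.53 to 0.60 over 15 in the second. Wild type and knockout lines share no replicate numbers, so no block was fitted between them.

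Leaving out 1 library gave 3 to 5 genes for the analog at 24 h, 0 to 2 for washout 30 min and 1 to 3 for washout 1 h against DMSO 1 h, 0 to 1 for washout 1 h against BRM014 1 h, 1 for washout 24 h against vehicle in each case, and 1 to 3 for the Snf2hko interaction. Where a group is left with 1 library, it is assumed to vary like the others. Depth limits T and Wnt3 most, with 37 and 50 counts over the vehicle libraries of the first batch at 24 h, and Sp5 under BRM014, with 11 counts.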
